A study of Homo sapiens with 21 samples.

Results

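The genes described here build or process the cornified envelope, the protein shell of squamous cells, and they were selected by name: SPRR1A, SPRR1B, SPRR2A, SPRR2D, SPRR3, IVL, TGM1, SPINK5, KLK10 and SCEL, 10 of the 56632 genes in the deposited tables. They were chosen by their values in EGFR inhibitor-tolerant cells against control cells of the same line, and SPRR1B was picked out because it was nearly lost in every tolerant library. Values of that contrast are therefore given as a description, with no test. The study profiled mRNA of human lung cell lines by RNA-seq in 21 libraries, 1 for each condition and line. Gefitinib-tolerant cells had been kept in 40 nM gefitinib and osimertinib-tolerant cells in 20 nM osimertinib for 14 days, each made from PC9 and from HCC827 and set beside the parental cells of the line. Cells overexpressing miR-147b or miR-21 after lentiviral infection and puromycin selection were compared with scrambled-control cells in AALE, HCC827 and PC9. Cells with miR-147b or miR-21 knocked down were compared with knockdown-control cells in H1975 and PC9ER.

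PC9, HCC827, H1975 and PC9ER are EGFR-mutant lung cancer lines. Per the labels, PC9 and HCC827 are negative and H1975 and PC9ER positive for EGFR T790M. That change in the receptor is known for gefitinib resistance. AALE is an immortalized line of tracheobronchial epithelium, not a cancer line, and it was grown in another medium than the cancer lines. Gefitinib and osimertinib are EGFR kinase inhibitors. The cell lines are the only replicates for contrasts between conditions. In contrasts between lines, the libraries of a line, which differ in condition, take that place. Nothing in the labels says that libraries of a line came from separate cultures. The p-values below therefore measure only the spread between these samples. Summed expected counts ran from 15516460 to 29694050 per library, with a median of 22026253.

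Stratified epithelia make the cornified envelope as their cells differentiate. Transglutaminases join small proline-rich (SPRR) proteins, involucrin and other precursors into an insoluble layer under the plasma membrane, and proteases with their inhibitors control how the outer cells are shed. Airway epithelium does not normally cornify, but injured bronchial epithelium can turn squamous, and SPRR1B was studied early as a marker of that change in airway cells. AP-1, a dimer of Fos and Jun family proteins, is a known activator of SPRR and involucrin genes and is induced downstream of EGFR.

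SPRR1A, SPRR1B, SPRR2A, SPRR2D, SPRR3 and IVL lie close together on chromosome 1 (GRCh38), in the epidermal differentiation complex, between the start of IVL at 152908545 and the end of SPRR2A at 153057537. SPRR1B occupies bases 153031202 to 153032900 there on the plus strand. TGM1 lies on chromosome 14, SPINK5 on chromosome 5, KLK10 on chromosome 19 and SCEL on chromosome 13. SCEL overlaps the antisense gene SCEL-AS1, KLK10 overlaps AC011473.2 on the other strand, and the labels do not say whether the authors counted by strand. The SPRR2 genes resemble each other: 32.7% of the 50-base words of SPRR2A transcripts and 19.3% of those of SPRR2D also occur in another gene, mostly in SPRR2B for SPRR2A and in SPRR2A for SPRR2D. The shares were 11.3% for SPRR1A and 4.38% for SPRR1B, each shared with the other. Reads were divided by estimation within these pairs, so single SPRR2 values are less certain than their sum, while SPRR3, IVL, TGM1, SPINK5 and SCEL shared 0 such words with any gene.

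The promoters of 8 of the 10 genes were found in the RefSeq table (GRCh38.p14), and none for SPRR2D and TGM1. Each runs from 250 bases before to 50 bases after the annotated start. Printed are 5 of them: SPRR1A, SPRR1B, SPRR2A and SPRR3, which share a motif, and SPINK5, which lacks it. IVL and SCEL, not printed, also hold the motif, and KLK10 lacks it. The AP-1 motif searched was TGANTCA, which reads the same on both strands. Capitals mark each match.
SPRR1A: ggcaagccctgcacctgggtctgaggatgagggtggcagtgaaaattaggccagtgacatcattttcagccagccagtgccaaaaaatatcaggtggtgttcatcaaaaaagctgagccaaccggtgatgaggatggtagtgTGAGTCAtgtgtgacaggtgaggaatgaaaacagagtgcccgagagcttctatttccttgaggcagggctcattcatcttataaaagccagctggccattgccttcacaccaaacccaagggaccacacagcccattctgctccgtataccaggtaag
SPRR1B: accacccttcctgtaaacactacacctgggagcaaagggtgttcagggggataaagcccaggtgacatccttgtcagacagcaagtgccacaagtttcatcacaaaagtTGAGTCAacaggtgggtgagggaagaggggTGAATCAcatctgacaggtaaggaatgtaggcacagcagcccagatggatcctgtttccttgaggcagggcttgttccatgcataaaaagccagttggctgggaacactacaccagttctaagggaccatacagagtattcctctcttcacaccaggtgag
SPRR2A: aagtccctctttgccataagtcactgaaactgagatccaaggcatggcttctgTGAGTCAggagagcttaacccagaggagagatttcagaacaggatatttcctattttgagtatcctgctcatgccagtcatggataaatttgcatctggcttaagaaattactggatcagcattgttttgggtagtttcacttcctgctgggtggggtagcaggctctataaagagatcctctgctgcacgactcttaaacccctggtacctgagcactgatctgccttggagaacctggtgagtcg
SPRR3: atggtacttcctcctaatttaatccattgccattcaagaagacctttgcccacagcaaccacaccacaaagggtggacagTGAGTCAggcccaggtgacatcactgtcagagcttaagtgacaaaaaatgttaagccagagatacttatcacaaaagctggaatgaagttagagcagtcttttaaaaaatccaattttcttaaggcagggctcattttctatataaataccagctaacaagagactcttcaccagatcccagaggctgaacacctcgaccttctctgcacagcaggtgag
SPINK5: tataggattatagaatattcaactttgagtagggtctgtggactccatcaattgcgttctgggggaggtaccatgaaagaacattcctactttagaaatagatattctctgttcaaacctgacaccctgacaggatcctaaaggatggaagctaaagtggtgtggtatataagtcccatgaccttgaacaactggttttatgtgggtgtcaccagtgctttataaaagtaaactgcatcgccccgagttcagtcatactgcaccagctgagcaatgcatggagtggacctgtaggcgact

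These windows cover chr1:152983831-152984130 (SPRR1A, plus strand), chr1:153030953-153031252 (SPRR1B, plus strand), chr1:153057463-153057762 (SPRR2A, minus strand), chr1:153001499-153001798 (SPRR3, plus strand) and chr5:148063730-148064029 (SPINK5, plus strand). The motif was found in 6 of the 8 genes with a promoter, against 7.71% of all 35116 promoters of that length. SPRR1B held 2 matches, 141 and 111 bases before its start, as did 0.515% of all promoters. SPRR1A, SPRR2A, SPRR3, IVL and SCEL held 1 each, and SPINK5 and both KLK10 promoters held 0. A match is a description of the letters and shows no binding. IVL and SCEL hold a match but did not share the loss of the SPRR genes described below, and any link between motif and level was not tested.

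**Figure D1:**
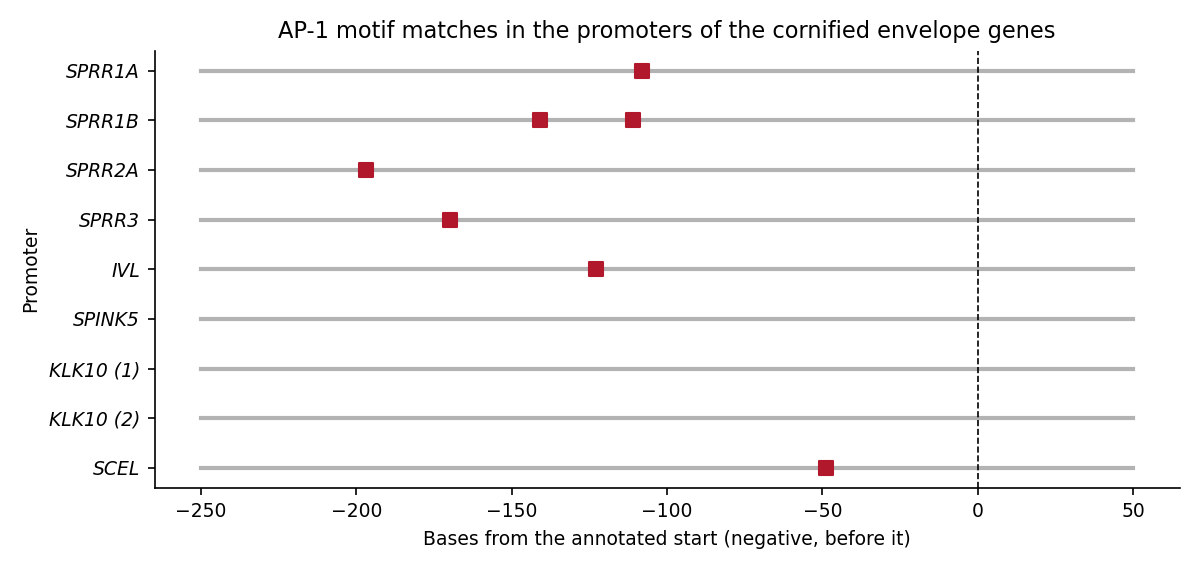
Positions of AP-1 motif matches (red squares) along 9 promoters of 8 genes; the horizontal axis gives bases from the annotated start, and KLK10 has 2 annotated starts. All matches lie before the start, and SPRR1B alone among these promoters has 2.

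SPRR1B, which encodes a cross-linked envelope precursor also known as cornifin, was almost absent from tolerant cells of both lines. In TMM-scaled CPM, which are counts relative to the size of the library, it was 0.0408 in gefitinib-tolerant cells and 0 in osimertinib-tolerant PC9 cells, against 2.98 in parental PC9 cells. In HCC827 it was 0.0521 in gefitinib-tolerant cells and 0.0374 in osimertinib-tolerant cells, against 15.5 in parental cells. Each tolerant library held at most 1.41 expected counts of SPRR1B, against 75.28 in parental PC9 and 366 in parental HCC827. The ratio in gefitinib-tolerant cells was 72.9-fold lower in PC9 (95% exact counting interval 13.7 to 3139) and 297-fold lower in HCC827 (74.7 to 16590). In osimertinib-tolerant cells it was at least 20.4-fold lower in PC9, set against a floor of 3 counts per library, and 414-fold lower in HCC827 (73.9 to 16400). Against scrambled-control HCC827 cells, where SPRR1B was at 0.355 CPM, the ratio was only 6.81-fold lower in gefitinib-tolerant (1.23 to 432.5) and 9.49-fold lower in osimertinib-tolerant HCC827 cells (1.22 to 427.5). Such intervals and floors cover counting error only. In bulk RNA, fewer cells of a type and less RNA per cell cannot be told apart.

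SPRR1A, the neighbouring precursor of the same family, was also low in every tolerant library, though less so in gefitinib-tolerant PC9. It had 0.489 CPM in gefitinib-tolerant cells and 0.0488 CPM in osimertinib-tolerant PC9 cells, against 2.36 CPM in parental PC9 cells. In HCC827 it had 0.244 CPM in gefitinib-tolerant cells and 0.112 CPM in osimertinib-tolerant cells, against 4.49 CPM in parental cells. The ratios were 4.84-fold and 48.4-fold lower in PC9 and 18.4-fold and 40.0-fold lower in HCC827, for gefitinib and then osimertinib. The smallest of these had a counting interval of 2.62 to 9.59.

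The SPRR2 precursors differed in how much the parental lines held. SPRR2A was 0.0756 CPM in gefitinib-tolerant cells and 0 in osimertinib-tolerant PC9 cells, against 10.9 CPM in parental PC9 cells, and SPRR2D was 0.0378 CPM and 0 in the same tolerant cells, against 10.6 CPM. In HCC827, SPRR2A was 0.0451 CPM in gefitinib-tolerant cells and 0 in osimertinib-tolerant cells, against 0.336 CPM in parental cells, and SPRR2D was 0 in gefitinib-tolerant cells and 0.411 CPM in osimertinib-tolerant cells, against 1.73 CPM. Parental HCC827 thus held few SPRR2 counts, 7.94 for SPRR2A and 40.86 for SPRR2D. The sum of 6 SPRR2 genes, which does not depend on how reads were divided among them, was 0.151 CPM in gefitinib-tolerant cells and 0.0488 CPM in osimertinib-tolerant PC9 cells, against 22.4 CPM in parental PC9 cells. In HCC827 the sum was 0.111 CPM in gefitinib-tolerant cells and 0.411 CPM in osimertinib-tolerant cells, against 2.62 CPM in parental cells. Against parental cells the sum was low in all 4 tolerant libraries, as SPRR2A and SPRR2D were. In scrambled-control HCC827 cells the sum was only 0.608 CPM and SPRR2D only 0.203 CPM (4 counts). SPRR2D was thus higher in osimertinib-tolerant HCC827 cells (11 counts) than in that control.

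SPRR3, known from the oesophagus and other wet squamous linings, kept a measurable level in HCC827. It had 1.22 CPM in gefitinib-tolerant cells and 1.68 CPM in osimertinib-tolerant HCC827 cells, against 19.4 CPM in parental HCC827 cells. In PC9 it had 0.151 CPM in gefitinib-tolerant cells and 0.146 CPM in osimertinib-tolerant cells, against 1.74 CPM in parental cells. The 4 ratios were close to each other: 11.5-fold and 11.9-fold lower in PC9, and 15.9-fold and 11.5-fold lower in HCC827.

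Set against parental cells, the other 5 genes did not share the loss. TGM1 encodes the membrane-bound transglutaminase that cross-links the envelope. It had 5.26 CPM in gefitinib-tolerant cells and 14.7 CPM in osimertinib-tolerant PC9 cells, against 2.57 CPM in parental PC9 cells. In scrambled-control PC9 cells TGM1 had 8.525 CPM, and gefitinib-tolerant cells were below that control (ratio 0.6165, counting interval 0.4895 to 0.7755). In HCC827 it had 4.66 CPM in gefitinib-tolerant cells and 6.51 CPM in osimertinib-tolerant cells, against 3.81 CPM in parental cells. TGM1 was highest in osimertinib-tolerant cells of both lines, and its ratio in gefitinib-tolerant HCC827 cells was 1.22 with a counting interval of 0.926 to 1.62. KLK10, a secreted serine protease of the kallikrein family, had 14.9 CPM in both gefitinib-tolerant and osimertinib-tolerant HCC827 cells, against 1.05 CPM in parental HCC827 cells, a ratio of 14.2 for each. In PC9 it had 19.6 CPM in gefitinib-tolerant cells and 21.2 CPM in osimertinib-tolerant cells, against 9.84 CPM in parental cells. KLK10 thus stood at a similar level in tolerant cells of both lines, although it was far lower in parental HCC827 than in parental PC9.

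SPINK5 encodes an inhibitor of epidermal kallikreins and is the gene mutated in Netherton syndrome. It had 4.18 CPM in gefitinib-tolerant cells and 5.12 CPM in osimertinib-tolerant HCC827 cells, against 0.931 CPM in parental HCC827 cells. In PC9 it stood near the counting limit, with 3 counts in gefitinib-tolerant cells and 7 in osimertinib-tolerant cells, against 4 in parental cells. IVL, which encodes involucrin, an early scaffold of the envelope, had 1.26 CPM in gefitinib-tolerant cells and 1.38 CPM in osimertinib-tolerant HCC827 cells, against 0.465 CPM in parental HCC827 cells. In PC9 the drugs differed in direction: IVL had 0.945 CPM in gefitinib-tolerant cells and 3.51 CPM in osimertinib-tolerant cells, against 2.02 CPM in parental cells. SCEL encodes sciellin, another envelope precursor. It had 21.0 CPM in gefitinib-tolerant cells and 7.36 CPM in osimertinib-tolerant PC9 cells, against 7.95 CPM in parental PC9 cells, and 21.6 CPM in gefitinib-tolerant cells and 44.8 CPM in osimertinib-tolerant HCC827 cells, against 18.6 CPM in parental HCC827 cells. The drug with the higher SCEL level was not the same in both lines.

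**Figure D2:**
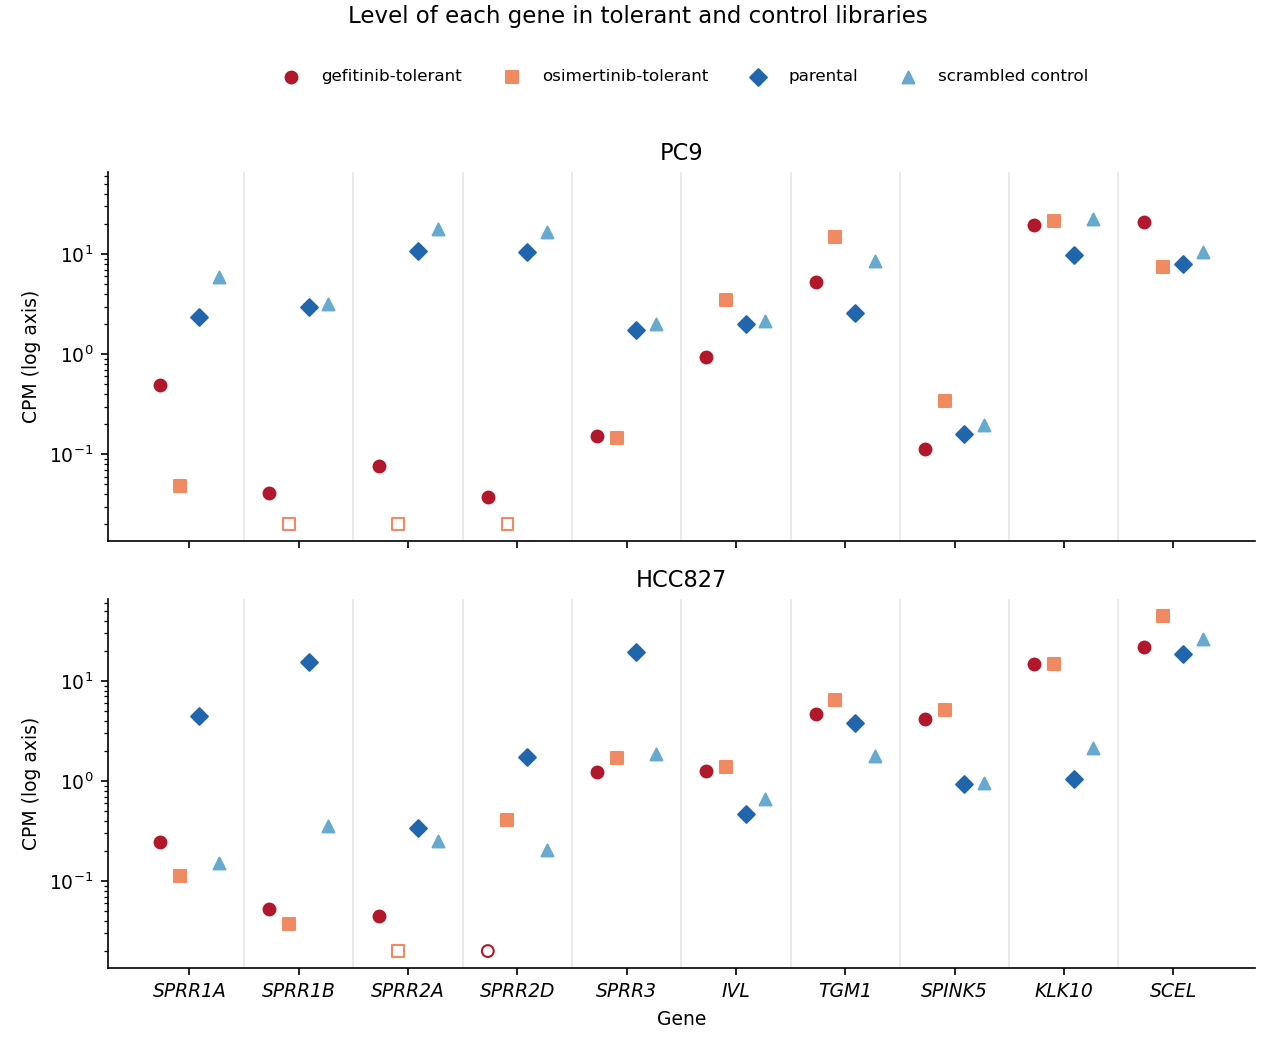
CPM (log axis) of each gene in PC9 and HCC827, with 1 point per library: gefitinib-tolerant, osimertinib-tolerant, parental and scrambled control. Open symbols at the foot of the axis mark libraries with 0 counts; the 5 SPRR genes are lower in all 4 tolerant libraries than in the parental library of the line, while TGM1 and KLK10 are higher.

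Against the parental library of their line, 5 of the 10 genes were lower in all 4 tolerant libraries (the 5 SPRR genes), 2 were higher in all 4 (TGM1 and KLK10) and 3 were mixed. Of all 17966 genes with at least 1 CPM in at least 1 of the 6 libraries, 23.1% were lower in all 4 and 25.5% were higher in all 4. The contrast chose the genes, so nothing is read from this count. In a fit over both lines, the log2 difference of SPRR1B from parental cells was −7.62 ± 0.80 in gefitinib-tolerant cells (SE, n = 2 lines) and −8.56 ± 0.86 in osimertinib-tolerant cells. These SEs were derived from the test statistic of the fit. They are far narrower than the counting intervals of single libraries given above, so they understate the uncertainty of SPRR1B. The median log2 fold change over the 9 genes that passed the filter on low counts was 0.15 for gefitinib and 0.69 for osimertinib, beside 0.05 and 0.04 over all genes tested. SPRR2A did not pass that filter, and with it the median turns negative, so it describes a group that splits in opposite directions poorly. By the edgeR quasi-likelihood test (Benjamini-Hochberg adjusted), 0.00% of 19837 genes passed an adjusted p of 0.05 in gefitinib-tolerant cells and 0.00% in osimertinib-tolerant cells. At an unadjusted p under 0.05 there were 3468 and 3924 genes, and DESeq2 called 1345 and 1754. Without the filter on low counts edgeR called 47 and 137. Leaving out the parental PC9 library gave 3528 and 3933 calls, with a lone parental sample that is assumed to vary like the other groups, while leaving out any other library gave at most 9 and 79.

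The choice of control library changed some of these directions in both lines. SPRR1B was 0.355 CPM in scrambled-control HCC827 cells, against 15.5 CPM in parental HCC827 cells, 43.6-fold lower (counting interval 21.0 to 109). SPRR3 was 1.88 CPM in scrambled-control cells, against 19.4 CPM in parental cells, and SPRR1A was 0.152 CPM, against 4.49 CPM. Neither library had been given an inhibitor, though scrambled-control cells had been infected and selected. The ratio of scrambled-control to parental HCC827 cells was 29.5-fold lower for SPRR1A and 10.4-fold lower for SPRR3, near those of the tolerant libraries. In PC9 the controls lay closer for SPRR1B, at 3.16 CPM in scrambled-control cells against 2.98 CPM in parental cells. SPRR3 was 1.98 CPM, against 1.74 CPM. All 10 genes were higher in scrambled-control than in parental PC9 cells, however, beside 49.97% of genes with at least 1 CPM in either library. Some of these differences were small. SPRR1B, SPRR3 and IVL had fewer expected counts in the scrambled-control library and were higher only after scaling, and SPINK5 had 4 counts in each. TGM1 was 8.525 CPM, against 2.57 CPM, SPRR1A 5.96 CPM, against 2.36 CPM, and KLK10 22.5 CPM, against 9.84 CPM. With scrambled-control cells as the reference, SPRR1B, SPRR2A and SPRR3 were lower in all 4 tolerant libraries, beside 26.9% of all genes, and 0 of the 10 genes were higher in all 4, beside 27.7% of all genes. SPRR3 in HCC827 was then only slightly lower, with 1.22 CPM in gefitinib-tolerant cells and 1.68 CPM in osimertinib-tolerant cells, against 1.88 CPM in scrambled-control cells. SPRR1A turned higher in gefitinib-tolerant HCC827 cells, at 0.244 CPM against 0.152 CPM, from 6.59 counts or fewer, and stayed lower in osimertinib-tolerant ones. SPRR2D turned higher in osimertinib-tolerant HCC827 cells, at 0.411 CPM against 0.203 CPM, and was 0 in gefitinib-tolerant ones. KLK10 in PC9 was then slightly lower, with 19.6 and 21.2 CPM in the tolerant libraries, against 22.5 CPM in scrambled-control cells. TGM1 in PC9 was then lower in gefitinib-tolerant cells and higher in osimertinib-tolerant cells. In HCC827, KLK10, SPINK5, TGM1 and IVL were higher in tolerant cells than in either control.

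**Figure D3:**
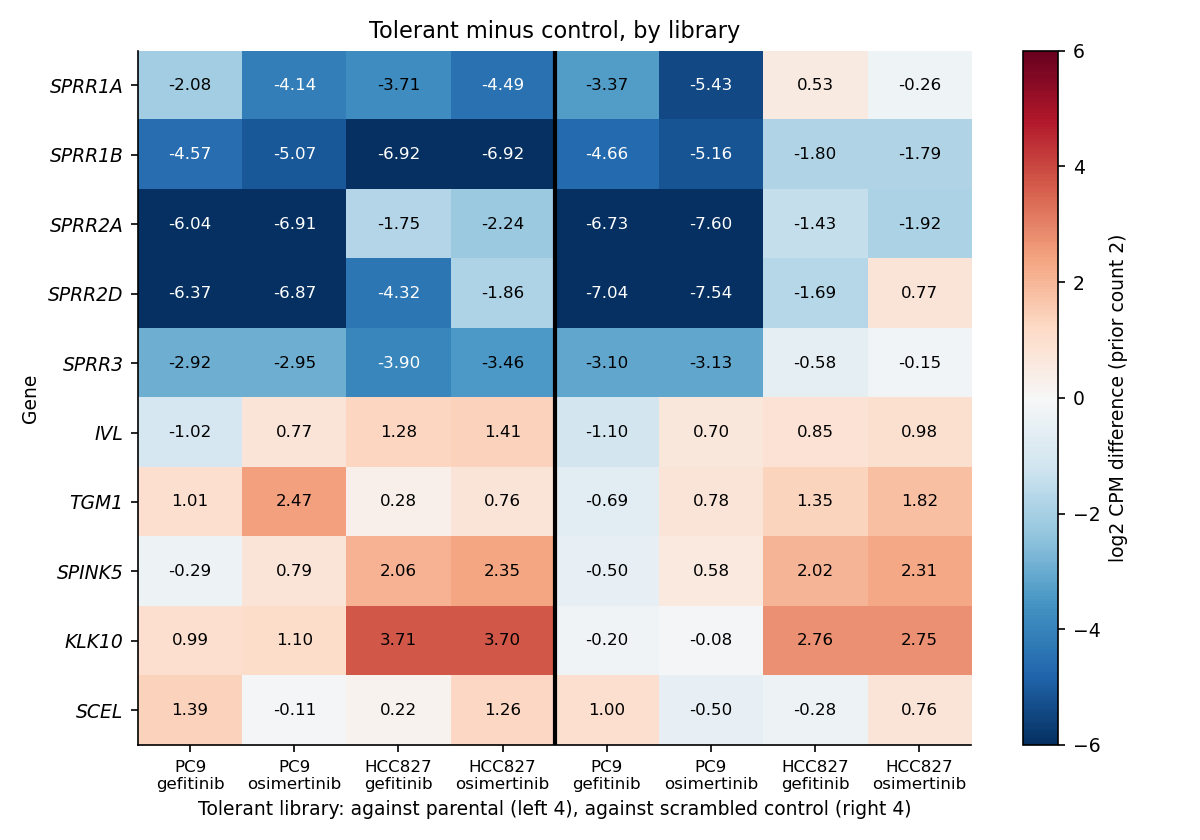
Differences in log2 CPM (prior count 2) of each tolerant library from the parental library (left 4 columns) and from the scrambled-control library (right 4 columns) of its line, red for higher and blue for lower. SPRR1B is blue in all 8 columns. Against the scrambled control in HCC827, SPRR3 loses most of its difference, and SPRR1A turns higher with gefitinib and SPRR2D with osimertinib.

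Osimertinib-tolerant and gefitinib-tolerant cells were also set against each other, at doses that differ (20 nM and 40 nM), and this contrast was not used to choose the genes. Of the 9 genes tested, 0 passed the edgeR quasi-likelihood test (Benjamini-Hochberg adjusted), 0 had an unadjusted p under 0.05 and DESeq2 called 0. Of all 19837 genes edgeR called 0.00%, 198 had an unadjusted p under 0.05 and DESeq2 called 7. SPRR1A came nearest: its log2 difference, osimertinib-tolerant minus gefitinib-tolerant, was −2.18 ± 0.86 (SE, n = 2 lines), with an adjusted p of 1 by edgeR. That SPRR1A difference rests on few expected counts: 1 in osimertinib-tolerant against 12.92 in gefitinib-tolerant PC9 cells, and 3 against 6.59 in HCC827. SPRR1B, at 1.41 expected counts or fewer in each tolerant library, could hardly show a difference here. TGM1 was 1.06 ± 0.52 log2 units higher and IVL 0.90 ± 0.72 higher in osimertinib-tolerant cells. KLK10 differed by 0.05 ± 0.68 log2 units, an error wide enough to hold a difference in either direction.

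Other genes of the envelope did not follow the SPRR genes as a group. The lists of related genes, like the 10 genes, were drawn up with earlier results of these data known. Of 22 further envelope genes, 11 reached 1 CPM in a tolerance library, and against parental cells 1 was lower in all 4 tolerant libraries (S100A11), 2 were higher (HRNR and PPL) and 8 were mixed. PPL, which encodes periplakin, a linker of the envelope to desmosomes, had 335 CPM in gefitinib-tolerant cells and 304 CPM in osimertinib-tolerant PC9 cells, against 169 CPM in parental PC9 cells. In HCC827, PPL had 82.6 CPM in gefitinib-tolerant cells and 89.8 CPM in osimertinib-tolerant cells, against 43.2 CPM in parental and 79.8 CPM in scrambled-control cells. The difference in PPL was thus small in HCC827 when the scrambled control was the reference. Among 13 of 19 further kallikreins and protease inhibitors at that level, KLK6, SERPINB3 and SERPINB4 were lower in all 4 and KLK7, KLK11, CST6 and PRSS8 higher in all 4. SERPINB4, a serpin also called squamous cell carcinoma antigen, had 1.06 CPM in gefitinib-tolerant cells and 0 in osimertinib-tolerant PC9 cells, against 3.12 CPM in parental PC9 cells. Of the 3 other transglutaminases at that level, TGM5 was lower in all 4. Of 8 desmosome genes, DSC2, PKP1 and PKP3 were lower and PKP2 was higher in all 4. These counts stand beside 23.1% of all genes lower and 25.5% higher in all 4, and they changed with the control. Against scrambled-control cells, PKP3 was lower and DSC2 was higher in all 4, so DSC2 turned direction, and the other 6 desmosome genes were mixed. Of the other envelope genes, PI3 and S100A11 were then lower and HRNR, PPL and ANXA1 higher in all 4. Of the kallikreins and inhibitors, KLK6, SPINT2, SERPINB4 and ST14 were lower and KLK11 and PRSS8 higher, and of the transglutaminases TGM2 and TGM5 were lower.

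Regulators of squamous differentiation stood on both sides: 5 of 15 were lower in all 4 tolerant libraries (KLF4, TP63, NOTCH1, EHF and FOSL1) and 5 were higher (GRHL1, GRHL2, GRHL3, PRDM1 and JUNB), beside 23.1% and 25.5% of all genes. Against scrambled-control cells, 2 were lower in all 4 (NOTCH1 and FOSL1), 6 were higher (GRHL1, GRHL2, PRDM1, ELF3, FOSL2 and JUNB) and 7 were mixed, KLF4, TP63, EHF and GRHL3 among them. FOSL1, a Fos family subunit of AP-1, had 45.8 CPM in gefitinib-tolerant cells and 39.3 CPM in osimertinib-tolerant PC9 cells, against 267 CPM in parental and 155 CPM in scrambled-control PC9 cells. In HCC827, FOSL1 had 85.8 CPM in gefitinib-tolerant cells and 50.8 CPM in osimertinib-tolerant cells, against 293 CPM in parental and 436 CPM in scrambled-control cells. FOSL1 was lower in tolerant cells than in either control of the line. In HCC827 it was higher in scrambled-control than in parental cells, the opposite order to SPRR1B. JUNB, a Jun family subunit of AP-1, had 72.7 CPM in gefitinib-tolerant cells and 90.9 CPM in osimertinib-tolerant PC9 cells, against 31.9 CPM in parental and 51.2 CPM in scrambled-control PC9 cells. In HCC827, JUNB had 109 CPM in gefitinib-tolerant and 98.0 CPM in osimertinib-tolerant cells, against 27.6 CPM in parental and 29.5 CPM in scrambled-control cells. FOSL1 and JUNB thus differed from the controls in opposite directions in the same libraries.

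Markers of basal airway cells were lower in sum where the SPRR genes were, and their part in the result was not tested. The summed level of KRT5, KRT14, TP63, ITGA6, NGFR and S100A2 was 436 CPM in gefitinib-tolerant cells and 348 CPM in osimertinib-tolerant PC9 cells, against 2061 CPM in parental and 914 CPM in scrambled-control PC9 cells. In HCC827 the sum was 53.5 CPM in gefitinib-tolerant cells and 55.7 CPM in osimertinib-tolerant cells, against 327 CPM in parental and 204 CPM in scrambled-control cells. Of these 6 markers, of which TP63 is also among the regulators above, 4 were lower than parental in all 4 tolerant libraries, beside 23.1% of all genes. Against scrambled-control cells, ITGA6 and S100A2 were lower in all 4 and KRT5, KRT14 and TP63 were mixed, beside 26.9% of all genes. The sum of 5 fibroblast markers reached 131.5 CPM in osimertinib-tolerant HCC827 cells, against 14.4 CPM in parental HCC827 cells, mostly as COL1A1. The sum of 5 leukocyte markers was at most 19.0 CPM in the tolerant libraries. All 5 epithelial markers were above 1 CPM in every library, and alveolar markers summed to 130 to 287 CPM in HCC827 but to at most 2.53 CPM in PC9, and SFTPC was at 0 in the 3 PC9 libraries of the tolerance set.

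The next question was whether these genes differ where the study raised or lowered a miRNA. The mature sequences from RefSeq (GRCh38.p14) show that the miRNAs share no seed, which is bases 2 to 8 and is given in capitals.
hsa-miR-147b-3p: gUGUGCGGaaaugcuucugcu
hsa-miR-21-5p: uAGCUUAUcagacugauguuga

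The complement of the miR-147b seed, CCGCACA, occurred in the 3′ untranslated regions of 0 of the 9 genes with such a region in GENCODE, against 2.57% of 19128 genes. The complement of the miR-21 seed, ATAAGCT, occurred once, in KLK10, against 9.15% of genes. MIR147B itself had 526, 386 and 61.0 expected counts in AALE, HCC827 and PC9 cells overexpressing miR-147b, and 0 in every scrambled-control library. PC9 thus had the fewest MIR147B reads of the 3. MIR147B was also listed at 0 in all knockdown and knockdown-control libraries, and MIR21 was at 0 in the miR-21 libraries, so these rows check neither the knockdowns nor the miR-21 overexpression.

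In HCC827 cells overexpressing miR-147b, all 10 genes were higher than in scrambled-control cells, in AALE 8 of 10 were, and in PC9 2 of 10 were. Of all genes with at least 1 CPM in either library, 46.5% were higher in HCC827, 50.7% in AALE and 44.7% in PC9. With miR-21, 6 of 10 were higher in HCC827, 9 in AALE and 3 in PC9, beside 46.9%, 47.4% and 44.6% of all genes. SPRR1B with miR-21 was 1.37 CPM in HCC827 (scrambled control 0.355), 73.7 CPM in AALE (48.6) and 2.72 CPM in PC9 (3.16). These directions were the same as with miR-147b. SPRR1B had 5.61 CPM in miR-147b-overexpressing HCC827 cells, against 0.355 CPM in scrambled-control HCC827 cells (ratio 15.8, counting interval 7.52 to 40.0). In AALE it had 134 CPM in miR-147b-overexpressing cells, against 48.6 CPM in scrambled-control cells. In PC9 it had 2.04 CPM in miR-147b-overexpressing cells, against 3.16 CPM in scrambled-control cells. The direction in PC9 was opposite to that in the other lines, and with 1 library per line and condition the difference between lines was not tested. The HCC827 value also stayed below the 15.5 CPM of parental HCC827 cells, so its direction depends on the low scrambled-control library. Basal markers were higher in the same fit: all 6 had positive log2 fold changes, 3 with an unadjusted p under 0.05, and KRT14 (1.89 ± 0.36, SE) and TP63 (1.33 ± 0.35) had an adjusted p of 0.921 by edgeR. Their summed level was 6429 CPM in miR-147b-overexpressing AALE cells, against 2425 CPM in scrambled-control AALE cells, and its part in the result was not tested.

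SPINK5 gave the smallest p. It had 61.3 CPM in miR-147b-overexpressing AALE cells, against 19.9 CPM in scrambled-control AALE cells, and 3.62 CPM in miR-147b-overexpressing HCC827 cells, against 0.963 CPM in scrambled-control HCC827 cells. In PC9 it was near the counting limit in both, with 3 counts in miR-147b-overexpressing and 4 in scrambled-control cells. Over the 3 lines SPINK5 was 1.64 ± 0.29 log2 units higher (SE, n = 3), higher in 2 of 3 lines, and it did not pass the edgeR quasi-likelihood test (Benjamini-Hochberg adjusted) (adjusted p = 0.737). IVL, at 20.8 CPM in miR-147b-overexpressing AALE cells against 7.95 CPM in scrambled-control AALE cells, was 1.16 ± 0.31 log2 units higher over the lines. SPRR1B was 1.39 ± 0.49 and KLK10 0.87 ± 0.33 log2 units higher. SPRR3 split, at 9.05 CPM in miR-147b-overexpressing AALE cells against 26.4 CPM in scrambled-control AALE cells, but 15.5 CPM in miR-147b-overexpressing HCC827 cells against 1.88 CPM in scrambled-control HCC827 cells. SPRR2A was likewise lower in AALE, at 17.5 CPM against 40.0 CPM in scrambled-control cells.

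By edgeR, 0 of the 10 genes passed for miR-147b, 4 had an unadjusted p under 0.05 and DESeq2 called 0. Of all 18433 genes, edgeR called 0.00543% (1 gene), 4.49% had an unadjusted p under 0.05 and DESeq2 called 7 genes. Without the filter on low counts, edgeR called 5 of the 10 (IVL, KLK10, SPINK5, SPRR1A and SPRR1B), beside 0.725% of genes (266 of 36676). The median log2 fold change was 0.69 over the 10 genes and 0.02 over all genes tested. For miR-21, 0 of the 10 passed edgeR, 0 had an unadjusted p under 0.05 and DESeq2 called 0. Of all 18433 genes edgeR called 0.00%, 171 had an unadjusted p under 0.05 and DESeq2 called 1. Set against each other, miR-147b and miR-21 gave 0 calls by edgeR, with 2 genes at an unadjusted p under 0.05, beside 0.00543% of genes, while DESeq2 called SPINK5, 1.55 ± 0.38 log2 units higher with miR-147b (adjusted p = 0.0485), beside 0.0651% of all genes (12 of 18433) by DESeq2. The 2 genes at an unadjusted p under 0.05 stand beside 3.62% of all genes. Without the filter, edgeR called 5 of the 10 in that contrast, beside 0.766% of genes (281 of 36676). Other envelope genes gave 0 calls for miR-147b among 19 tested by edgeR, with 4 at an unadjusted p under 0.05.

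**Figure D4:**
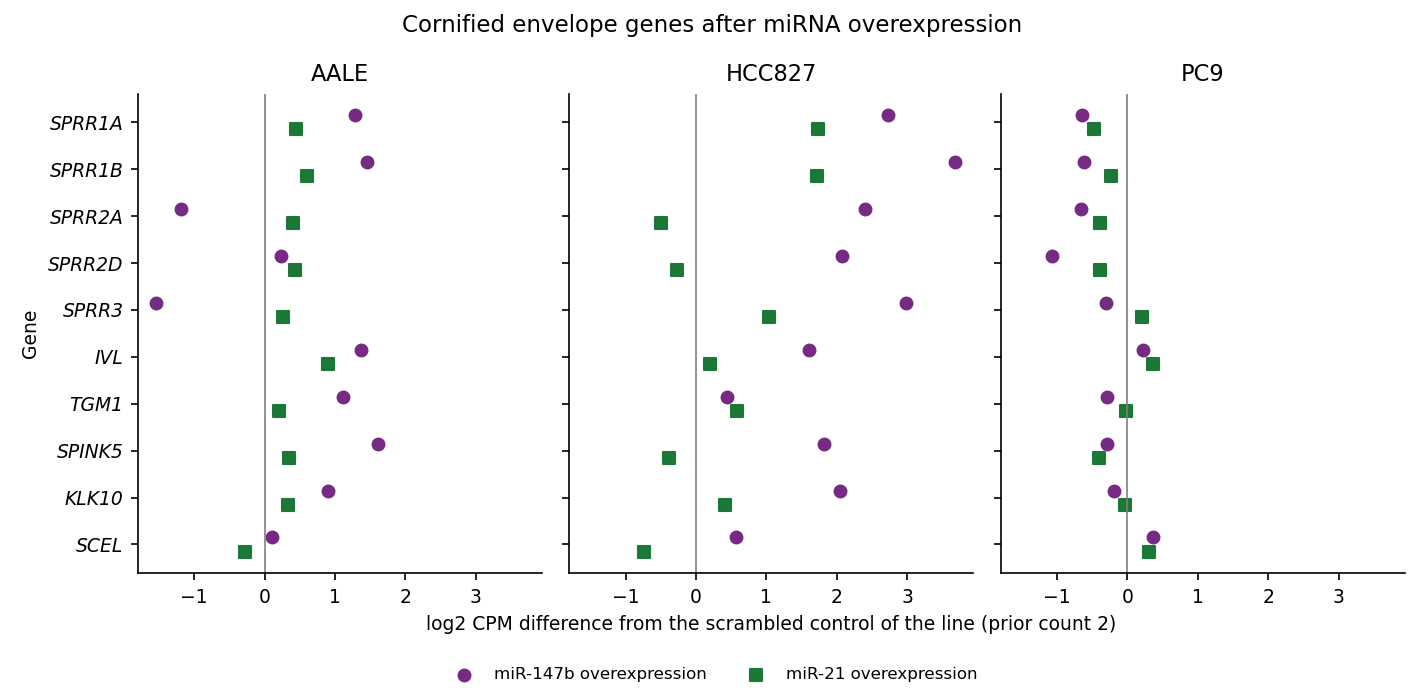
Differences in log2 CPM (prior count 2) from the scrambled control of the line for miR-147b overexpression (purple circles) and miR-21 overexpression (green squares), with 1 library each. With miR-147b all 10 genes lie right of 0 in HCC827, and 8 of 10 lie left of it in PC9.

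Knockdown gave no call among the 10 genes. For miR-147b, 0 of 10 passed the edgeR quasi-likelihood test (Benjamini-Hochberg adjusted), 0 had an unadjusted p under 0.05 and DESeq2 called 0. Of all 17723 genes edgeR called 0.00%, 146 had an unadjusted p under 0.05 and DESeq2 called 26. For miR-21 the counts among the 10 genes were also 0, 0 and 0, and of all 17723 genes edgeR called 0.00%, 357 had an unadjusted p under 0.05 and DESeq2 called 37. SCEL in PC9ER had 18.6 CPM in miR-21-knockdown cells and 4.10 CPM in miR-147b-knockdown cells, against 1.495 CPM in knockdown-control PC9ER cells. In H1975 it had 49.0 CPM in miR-21-knockdown cells and 60.9 CPM in miR-147b-knockdown cells, against 58.6 CPM in knockdown-control H1975 cells. Over both lines SCEL was 1.66 ± 0.91 log2 units higher with miR-21 knockdown (adjusted p = 0.833 by edgeR), and the lines disagreed. Leaving out the H1975 knockdown-control library gave 1 call for miR-21 among the 10 (SCEL, beside 4.49% of 18641 genes), and leaving out the H1975 miR-21-knockdown library gave 2 (SCEL and KLK10, beside 30.1% of 18594 genes), each with a lone sample that is assumed to vary like the other groups. The 5 SPRR genes in PC9ER were higher with either knockdown than in the same knockdown-control library. SPRR1B had 4.79 CPM with miR-21 knockdown and 2.59 CPM with miR-147b knockdown, against 2.02 CPM in knockdown-control cells. SPRR2A had 3.48 CPM and 1.36 CPM, against 1.34 CPM. Of the 10 genes, 7 were higher with each knockdown in PC9ER, beside 47.8% of all genes for miR-21 and 54.7% for miR-147b. In the same PC9ER libraries the basal marker sum was 1067 CPM with miR-21 knockdown, against 486 CPM in knockdown-control cells, and the epithelial marker sum was 7333 CPM, against 14070 CPM. The part of these markers in the result was not tested. In H1975 all 5 SPRR genes stayed at or below 1.42 CPM in every library.

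The levels differed widely between cell lines. In AALE, all 10 genes were called higher than in HCC827 and PC9 by the edgeR quasi-likelihood test (Benjamini-Hochberg adjusted), beside 66.3% of 18433 genes called in either direction. The log2 differences ran from 2.04 ± 0.17 for SCEL to 6.11 ± 0.24 for SPINK5 (SE), with a median of 3.68, beside 0.04 over all genes tested. SPRR1B averaged 85.3 ± 43.7 CPM in AALE, against 2.44 ± 2.79 CPM in HCC827 and 2.64 ± 0.57 CPM in PC9 (SD, n = 3 libraries of each line). TGM1 averaged 94.99 ± 41.5 CPM in AALE, against 2.31 ± 0.48 CPM in HCC827 and 7.96 ± 0.87 CPM in PC9. Libraries of a line differ in the miRNA they carry and are no separate cultures of known origin, and AALE grew in another medium, so line and medium cannot be told apart. The basal marker sum was 2425 to 6429 CPM in AALE, all 6 markers being above 1 CPM, and its part in the result was not tested.

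Across the 5 lines in the 15 miRNA libraries, AALE was above all 12 libraries of the other lines for SPRR1A, SPRR1B, SPRR2D, TGM1, SPINK5 and SCEL, 6 of the 10 genes. The same held for 15.2% of the 18241 genes with at least 1 CPM in 1 of these libraries. IVL was the exception in order: H1975 had 13.2 to 24.1 CPM and AALE 7.95 to 20.8 CPM, ranges that overlap, and the other lines had at most 3.94 CPM. KLK10 in PC9ER, at 23.0 to 41.7 CPM, overlapped AALE, at 40.6 to 76.3 CPM. H1975 was lowest in median for SPRR1A, SPRR1B, SPRR2A, SPRR3, TGM1 and KLK10, although it held the second-highest SCEL and SPINK5 levels. Its SPRR1A was 0 in both knockdown libraries, against 0.117 CPM in its knockdown control, where a floor of 3 counts is 0.137 CPM. For SPRR1B, neighbouring lines other than AALE overlapped: PC9 with PC9ER, PC9ER with HCC827, and HCC827 with H1975.

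HCC827 and PC9 differed in which genes they held. Each side of the contrasts in this paragraph is a single line, whose libraries differ in the miRNA condition. Their p-values and SEs therefore measure only the spread between libraries of a line. By the edgeR quasi-likelihood test (Benjamini-Hochberg adjusted), 8 of the 10 genes were called between HCC827 and PC9, 2 higher in HCC827 (SPINK5 and SCEL) and 6 lower, beside 62.0% of genes. SPINK5 was 3.42 ± 0.45 log2 units higher in HCC827 and the log2 difference of SPRR2D was −4.38 ± 0.51 (SE, n = 3 libraries of each line). Between H1975 and PC9ER all 10 were called by the same test, beside 46.1% of 17723 genes: IVL, SPINK5 and SCEL were higher in H1975 and the other 7 lower. The log2 difference, H1975 minus PC9ER, was −7.40 ± 0.80 for SPRR1A, −6.15 ± 0.49 for KLK10 and 4.03 ± 0.74 for SPINK5. SPINK5 and SCEL were thus called higher, and SPRR1A, SPRR2A, SPRR2D, TGM1 and KLK10 lower, in HCC827 than in PC9 and in H1975 than in PC9ER. IVL was called in opposite directions in these pairs. PC9ER carries the name of PC9, so the pairs may not be independent.

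**Figure D5:**
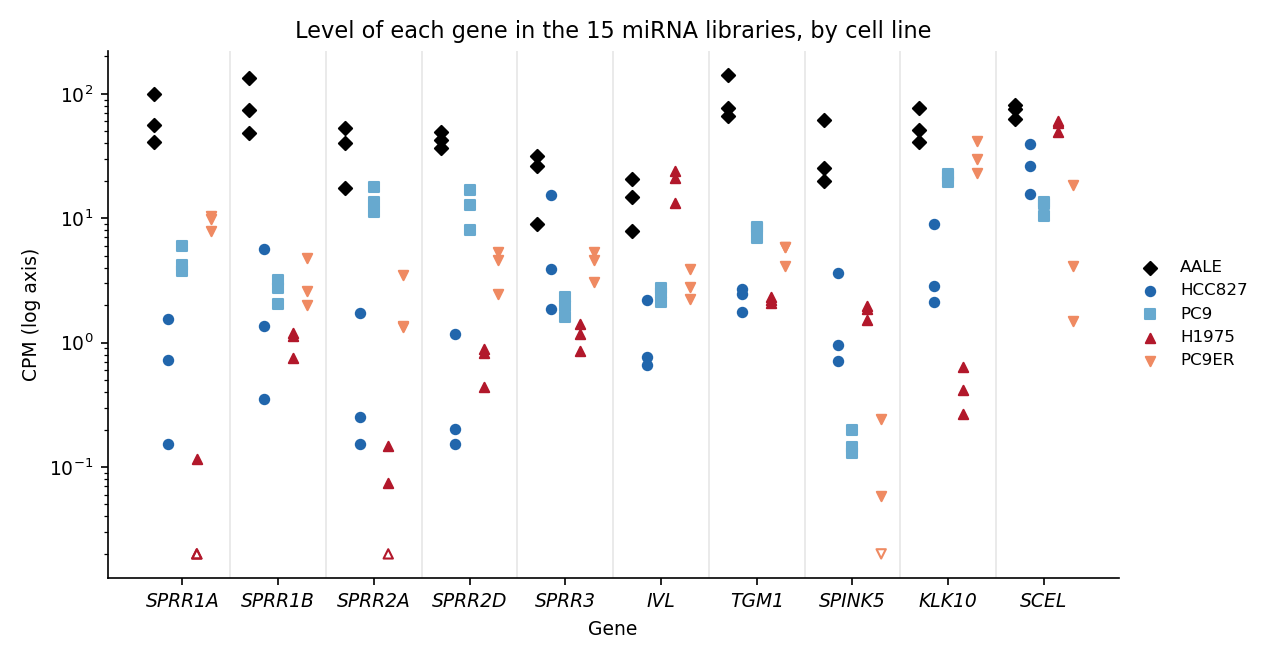
CPM (log axis) of each gene in the 15 miRNA libraries, with 1 point per library and 3 per line; open symbols at the foot of the axis mark 0 counts. AALE stands above all 12 other libraries for 6 of the 10 genes, beside 15.2% of all genes, and H1975 overlaps AALE for IVL.

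Levels of different genes can be set against each other only per length. Per kilobase of annotated exon, SPRR1B was the highest of the 10 genes in parental HCC827, at 25.0 CPM per kilobase, and SPRR2A in parental PC9, at 15.3 CPM per kilobase. In gefitinib-tolerant cells SCEL was the highest in both lines, at 6.71 CPM per kilobase in HCC827 and 6.51 CPM per kilobase in PC9. The annotation gives SPRR1A 270 exon bases, which hold its coding part alone, so its value per length is too high.

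Within lines, the genes fell into those that varied with SPRR1B and those that did not. With log2 CPM centred on each line's mean over all 21 libraries, Pearson's r with SPRR1B was 0.908 for SPRR1A, 0.904 for SPRR3, 0.835 for SPRR2D and 0.801 for SPRR2A. It was −0.03 for IVL, −0.04 for SCEL, −0.27 for SPINK5, −0.33 for TGM1 and −0.49 for KLK10. SPINK5 and KLK10, an inhibitor and a kallikrein, had an r of 0.689 with each other. These points share lines, controls and the tolerance libraries that chose the genes, so the values describe the data and are not tested. Among 16369 genes with at least 1 CPM in 5 libraries, and leaving out the genes described here, those most like SPRR1B by this measure were PKP3 (0.919), KRT6A (0.914), ZNF142 (0.912), TAP2 (0.910) and RP11-77I22.3 (0.903). KRT6A, a keratin of activated squamous cells, had 0.124 CPM in gefitinib-tolerant cells and 0.340 CPM in osimertinib-tolerant HCC827 cells, against 15.9 CPM in parental and 1.70 CPM in scrambled-control HCC827 cells, and it had 20.3 CPM in miR-147b-overexpressing HCC827 cells. PKP3, which encodes the desmosome protein plakophilin 3, had 27.0 CPM in gefitinib-tolerant cells and 32.4 CPM in osimertinib-tolerant HCC827 cells, against 163 CPM in parental and 76.1 CPM in scrambled-control HCC827 cells. Both genes, like SPRR1B, were lower in scrambled-control than in parental HCC827 cells. Likeness to SPRR1B over these same libraries chose both genes, so nothing is read from that similarity. In PC9ER both were lower with either knockdown than in knockdown-control cells, while SPRR1B was higher.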

How the data were processed

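The values are expected counts per gene, which the authors deposited as 3 tables for 21 libraries. Per the submitters' processing notes, Bowtie2, RSEM and GRCh37 were used; the labels give no version of these and no annotation release. Libraries were made with Illumina TruSeq mRNA preparation, per the labels' protocols. Expected counts were rounded for testing, scaled by TMM and filtered with filterByExpr. The main test was edgeR's (4.0.16) quasi-likelihood test, with cell line as a block (or condition, for contrasts between lines), in 3 fits: tolerance, overexpression and knockdown. Benjamini-Hochberg adjustment ran over all genes tested, with a threshold of 0.05. Each SE of an edgeR log2 fold change is its absolute size divided by the square root of the F statistic of that test. Cell lines pair the libraries, which is where the block comes from: same-line deviations correlated at 0.706 or more within each fit. Alternatives were DESeq2 (1.42.0), no filter, RLE scaling, no block, other prior counts, other controls and leaving out each library. The test was tested on simulated data. Ratios of 2 libraries have exact binomial (Clopper-Pearson) 95% intervals. A floor of 3 counts was used. Further genes were named by list, by size of difference or smallest p, and by likeness to SPRR1B; those that spell out a count of 5 or fewer were named after their values were seen. The members and lists were chosen with earlier results of these data known. Sequences came from RefSeq tables (GRCh38.p14), gene positions from GENCODE (GRCh38), and GRCh37 coordinates were not used.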

Additional observations from a re-analysis of the deposited data

How the results depend on the processing

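Over 1202 alternative values of single genes, 1031 kept their direction and side of the threshold or stayed within 1 SE, 141 moved by more, 19 gained a call, 11 lost one and 0 reversed a call. Without the filter on low counts, edgeR called 5 genes for miR-147b overexpression and 5 for miR-147b against miR-21, against 0 for each in the main fits and beside 0.725% and 0.766% of all genes; DESeq2 called 1 for miR-147b against miR-21. The cause was not tested. For miR-21 knockdown, leaving out 1 library gave 0 to 2 called genes. The median log2 fold change of the genes was 0.15 for gefitinib tolerance, −1.50 without the filter, and −1.68 to −0.0239 when 1 library was left out. For osimertinib tolerance it was 0.69, −1.43 without the filter, and −2.03 to 0.70 when 1 library was left out. These medians differ in part by construction, because SPRR2A enters with 10 instead of 9 genes. With scrambled-control libraries as the reference, 3 genes instead of 5 were lower in all 4 tolerant libraries. The fits without the cell line as a block (no pairing of libraries) changed no count of the 10 genes called. The median log2 fold change of the genes tested was −0.18 for gefitinib tolerance without the replicate block, the opposite sign to the main value, and 0.93 for osimertinib tolerance. The precision is limited by depth for SPRR1B, SPRR2A and SPRR2D in tolerant cells, where most values are at or under the floor of 3 counts, and by the number of lines for every test.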
